A study of Mus musculus with 9 samples.

Results

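The 28 genes described here make cholesterol, control that synthesis through the transcription factor SREBP2, or move sterols through the cell. They were listed by name as a pathway, with earlier results of these data known, and make up 28 of the 21951 genes in the count table. All 28 were among the 11295 genes with enough reads to be tested. RNA was sequenced from BV2 cells, an immortalised mouse microglia line labelled wild type, in 3 groups of 3 libraries. Control cells were left unirradiated and received vehicle, which was 20% HP-β-CD (hydroxypropyl-β-cyclodextrin, a ring-shaped sugar that can take up sterols). Irradiated cells received the same vehicle 30 min before a single 10 Gy dose of X-rays. Triol-treated cells received 10 µM of 5α-androst-3β,5α,6β-triol, a polyhydroxylated steroid, 30 min before X-rays of that dose. For these cells no vehicle is named, and the treatment field of triol replicates 2 and 3 puts the last hydroxyl at position 7 or 8, while the titles of all 3 libraries put it at 6. No group received the triol without radiation, so the triol was seen only in irradiated cells. With no vehicle named for the triol cells, the triol and a vehicle difference cannot be told apart in either triol comparison. How long after irradiation RNA was taken is not stated in the labels. BV2 is a single cell line, and the labels do not say whether replicates were separate cultures, so p-values reflect only how far these libraries differ, which could be technical spread.

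Cholesterol is built from acetyl-CoA through mevalonate, isoprenoid pyrophosphates, squalene and lanosterol. SREBP2 is made as a membrane protein of the endoplasmic reticulum, where Insig proteins hold it back through its escort Scap while sterols are plentiful. When sterols fall, Scap carries SREBP2 to the Golgi, where the site-1 and site-2 proteases release a fragment that enters the nucleus and switches on the synthesis genes, usually together with the CCAAT-binding factor NF-Y. Microglia, the resident macrophages of the brain, also take in sterols with lipoproteins and myelin debris, and NPC2 and NPC1 pass that cholesterol out of lysosomes.

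Radiation lowered most of these genes and raised 1 of them. By edgeR's quasi-likelihood test with Benjamini-Hochberg adjustment over all tested genes, 21 of the 28 fell, beside a background of 22.2% of all tested genes that fell. Npc2 rose, beside a background of 22.1%. Idi1, Ggps1, Hsd17b7, Scap, Mbtps1 and Stard4 did not pass the threshold of an adjusted p of 0.05. The median log2 fold change of the 28 genes was -0.31, and that of all tested genes was 0.0067. For 20 of the 28 genes every irradiated library lay below every control library, beside a background of 25.5%. The triol group differed little from the irradiated group: none of the 28 genes passed the threshold, although 26 of them had a higher fitted level with the triol.

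**Figure D1:**
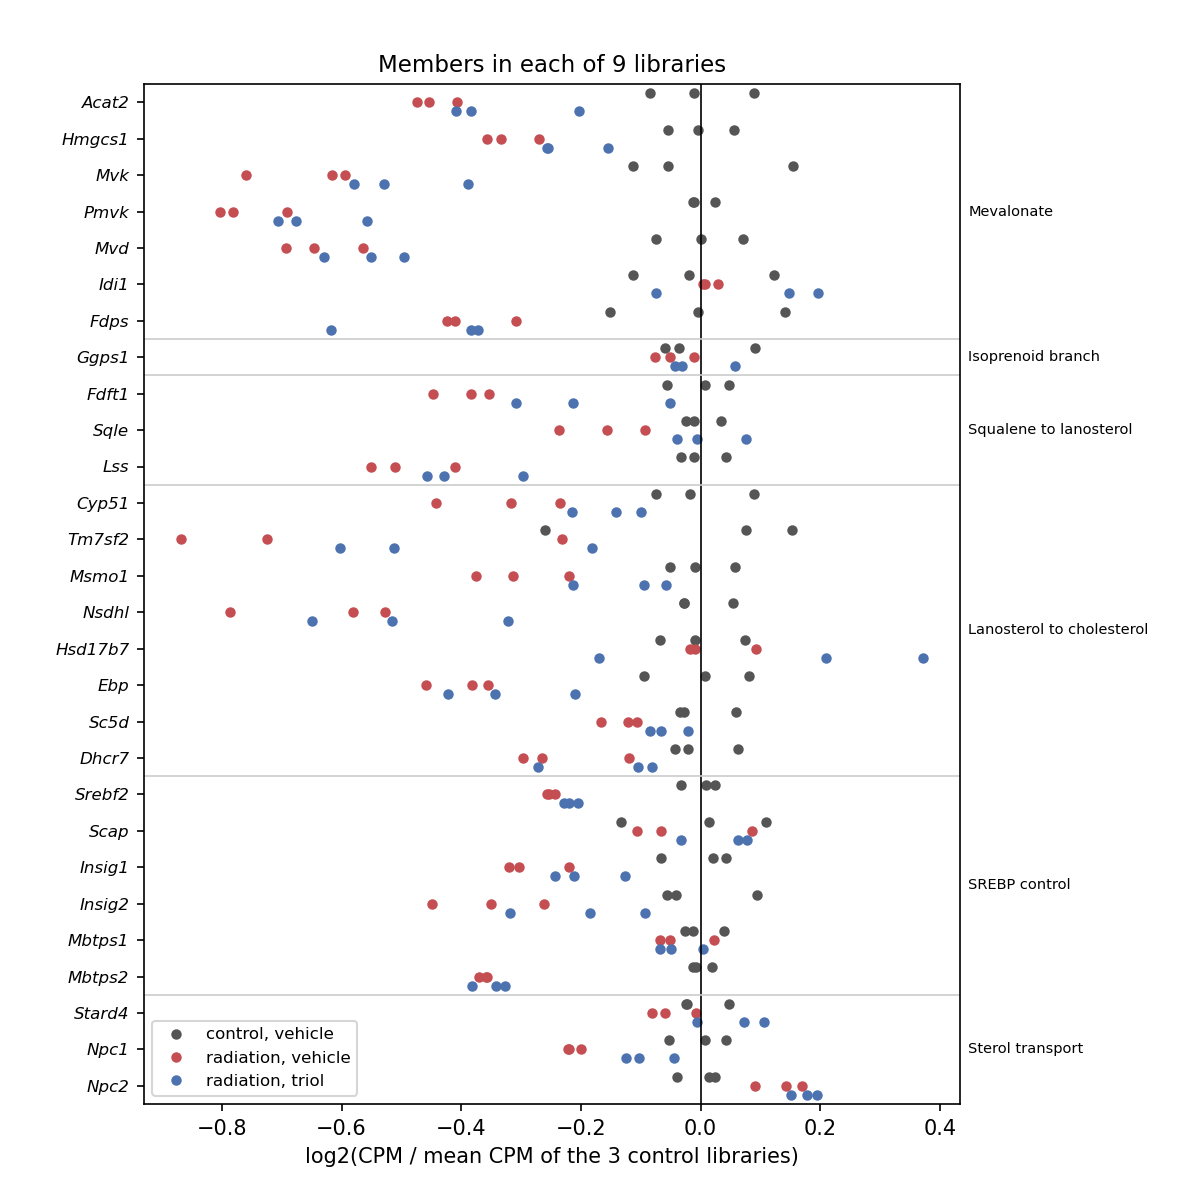
Each point is 1 library, and the horizontal axis is the log2 ratio of its CPM (counts scaled to the library size) to the mean CPM of the 3 control libraries. Most irradiated points lie left of the control points, and the triol points lie mostly between those of the other groups or just right of the irradiated points.

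The DNA before the start sites of these genes was searched for a sterol response element core, written TCACNCCAC, and for CCAAT, the letters that NF-Y binds, on both strands. RefSeq windows on GRCm38.p6, 300 bases each from 250 before to 50 after an annotated start, were matched for 23 of the 28 genes. CCAAT was present in 19 of the 23 (82.6%), against 41.1% of 27025 genes with a window. The sterol response core was present in 1 of the 23, Hmgcs1, against 1.44% of genes. Scap, Acat2, Mbtps1 and Mbtps2 had neither. Other spellings of the sterol response element, and DNA outside the windows, were not searched, so a gene without a match may still have such an element. The 27025 genes were not limited to those tested for expression. The 200 bases before the start are printed for Hmgcs1, Mvk, Pmvk and Mvd of the mevalonate segment, which held the 3 largest falls. They are also printed for Sc5d, with a small fall, and for Mbtps2, which fell and has neither motif. Of the mevalonate genes not printed, Acat2 fell and has neither motif, Idi1 did not pass and has CCAAT, and Fdps had no window. Capitals mark the matches, either as spelled or as the reverse complement, and in these stretches the motifs do not overlap each other. The stretches lie at chr13:119690151-119690350 (plus strand) for Hmgcs1, chr5:114444069-114444268 (plus) for Mvk, chr3:89454341-89454540 (plus) for Pmvk, chr8:122443423-122443622 (minus) for Mvd, chr9:42264301-42264500 (minus) for Sc5d and chrX:157598716-157598915 (minus) for Mbtps2, each written 5′ to 3′ along the gene.
Hmgcs1: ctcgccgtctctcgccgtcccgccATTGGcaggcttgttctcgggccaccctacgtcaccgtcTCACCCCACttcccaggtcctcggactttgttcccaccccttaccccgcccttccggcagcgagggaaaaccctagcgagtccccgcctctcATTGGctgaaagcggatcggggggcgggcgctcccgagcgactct
Mvk: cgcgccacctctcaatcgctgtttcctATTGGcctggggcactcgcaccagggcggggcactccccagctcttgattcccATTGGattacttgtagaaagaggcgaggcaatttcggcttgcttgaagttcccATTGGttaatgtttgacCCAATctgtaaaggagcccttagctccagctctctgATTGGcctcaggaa
Pmvk: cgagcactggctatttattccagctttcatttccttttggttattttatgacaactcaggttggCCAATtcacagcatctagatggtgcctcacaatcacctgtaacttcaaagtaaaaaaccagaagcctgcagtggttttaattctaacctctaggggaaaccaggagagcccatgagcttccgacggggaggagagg
Mvd: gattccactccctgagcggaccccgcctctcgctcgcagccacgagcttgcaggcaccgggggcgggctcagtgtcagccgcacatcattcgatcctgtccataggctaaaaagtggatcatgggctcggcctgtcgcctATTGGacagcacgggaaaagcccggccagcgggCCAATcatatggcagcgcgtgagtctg
Sc5d: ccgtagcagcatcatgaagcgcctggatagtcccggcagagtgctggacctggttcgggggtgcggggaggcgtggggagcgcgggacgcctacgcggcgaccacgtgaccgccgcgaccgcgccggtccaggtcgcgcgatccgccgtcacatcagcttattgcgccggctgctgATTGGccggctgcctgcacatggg
Mbtps2: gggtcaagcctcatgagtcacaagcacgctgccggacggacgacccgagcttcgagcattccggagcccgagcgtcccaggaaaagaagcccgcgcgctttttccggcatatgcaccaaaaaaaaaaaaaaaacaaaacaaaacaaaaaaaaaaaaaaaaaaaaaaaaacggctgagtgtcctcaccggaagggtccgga
Within these 200 bases Mvk carries 5 CCAAT matches, Hmgcs1 and Mvd carry 2 each, and Pmvk and Sc5d carry 1 each. A match describes letters only, and no factor's binding was measured in these libraries.

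The library totals were 14118475 to 17705424 counts in the control group, 13879062 to 15192203 after radiation and 17230866 to 18944051 with the triol. Of 15 microglial marker genes 13 were tested, and 10 of these fell with radiation, beside a background of 22.2% of all tested genes. The median log2 fold change of the tested markers was -0.415, against -0.309 for the 28 pathway genes, so a fall was not particular to the pathway. The summed level of all 15 markers was 2635 to 2772 RPM (reads scaled to the library total) in the control group. It was 2031 to 2109 after radiation and 2045 to 2092 with the triol. The macrophage gene Csf1r had 4624 to 9018 reads, while P2ry12 had 6 to 14 reads and Tmem119 16 to 26, so the markers of resting brain microglia were close to absent from this line. Because these are bulk libraries, fewer cells of a type and less RNA per cell cannot be told apart. A list of 40 hepatocyte genes summed to 39.6 to 45.0 RPM in the control group, 47.7 to 54.4 after radiation and 59.0 to 63.9 with the triol. Oligodendrocyte genes summed to 34.1 to 41.2, 38.6 to 45.7 and 38.9 to 43.9, and lists for astrocytes, neurons and fibroblasts stayed at or below 2.21 in every library. The part of these marker lists in the results below was not tested.

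Levels per length, as CPM per kilobase of exon, ranked the 28 genes in control cells. The length merges all annotated exons of a gene, whichever transcripts these cells make, so the ranks depend in part on the annotation. Npc2 stood highest at 123 ± 2.94 (SD, n = 3), followed by Srebf2 at 40.5 ± 0.815. Insig1 at 33.3 ± 1.32, Pmvk at 33.0 ± 0.482 and Hmgcs1 at 31.9 ± 1.22 came next and did not differ from each other beyond about their spread. Sqle at 23.3 ± 0.493 and Msmo1 at 22.7 ± 0.863 were likewise neighbours within their spread. At the low end stood Fdps at 1.31 ± 0.133, which makes farnesyl pyrophosphate, and Tm7sf2 at 1.28 ± 0.186, a sterol C14 reductase. Of the exonic bases of Fdps, 26.7% also lie in Gm43738 on the same strand, which had 0 or 1 read in every library; whether reads there were left uncounted was not tested.

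**Figure D2:**
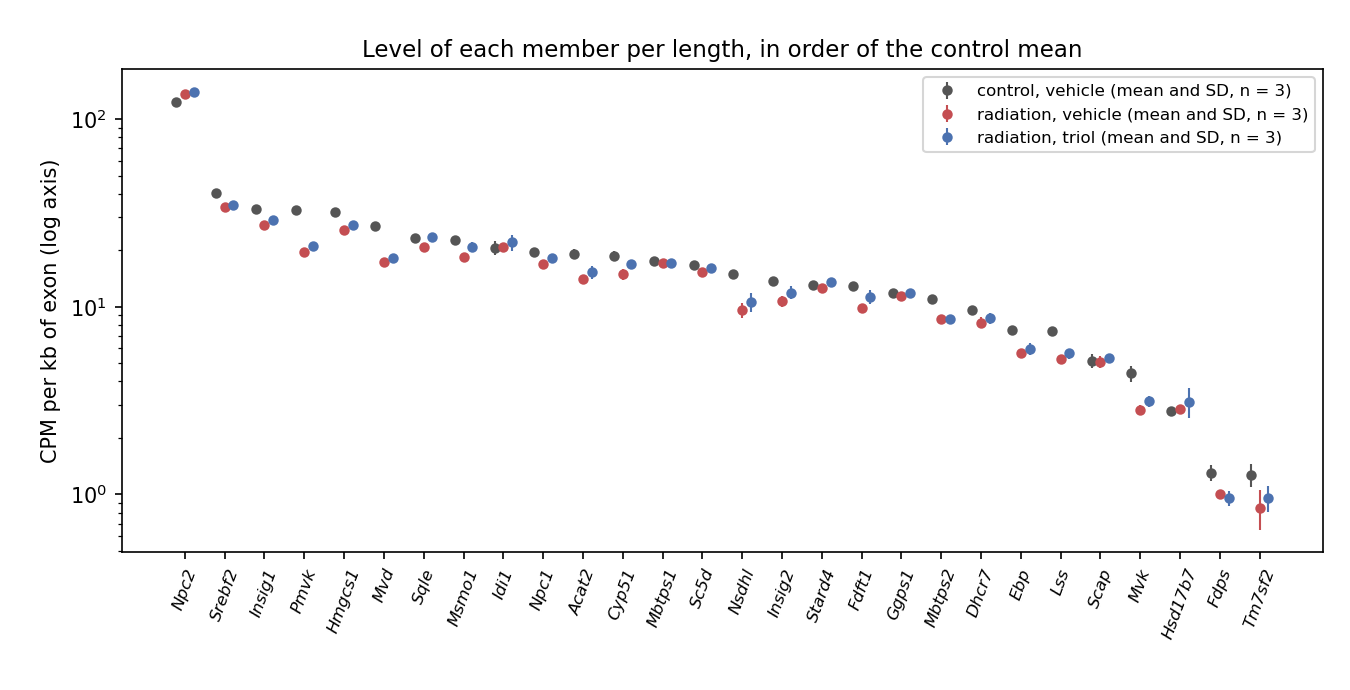
The vertical log axis gives CPM per kilobase of exon for each gene, as the mean and SD of 3 libraries per group, in order of the control mean. Npc2 stands above the other 27 genes, and Fdps and Tm7sf2 stand near 1.

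In the mevalonate segment 6 of 7 genes fell with radiation. The largest fall among all 28 genes was that of Pmvk (chr3:89454541-89469013), phosphomevalonate kinase. Its level was 55.9, 56.0 and 57.4 CPM in control replicates 1 to 3, 34.9, 32.8 and 32.3 in irradiated replicates and 35.3, 38.4 and 34.6 in triol-treated replicates. Every irradiated and every triol-treated library lay well below every control library. Pmvk fell by 40.9% (log2 fold change -0.76, SE 0.06, adjusted p 9.9e-14). Mvd (chr8:122433601-122443422), which encodes mevalonate diphosphate decarboxylase, the next enzyme, stood at 52.3, 49.9 and 47.4 CPM in control, 33.7, 31.8 and 30.8 in irradiated and 34.0, 35.3 and 32.2 in triol-treated libraries. The control values again did not overlap with the others, and the log2 fold change was -0.63 (SE 0.06, adjusted p 5.7e-11). Mvk, mevalonate kinase, fell from 11.8 ± 1.17 to 7.52 ± 0.459 CPM (SD, n = 3), a log2 change of -0.66 (SE 0.12).

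Hmgcs1 (chr13:119690379-119708260), the cytosolic HMG-CoA synthase that commits acetyl units to mevalonate, had 153, 141 and 146 CPM in control, 116, 115 and 122 in irradiated and 123, 132 and 123 in triol-treated libraries. The 3 groups formed separate ranges, with control highest and irradiated lowest. Its log2 fold change with radiation was -0.32 (SE 0.04, adjusted p 2.3e-08). Acat2, the cytosolic thiolase of the first step, fell from 48.8 ± 2.96 to 35.8 ± 0.855 CPM (SD, n = 3), by 0.44 on the log2 scale. Of the 50-base words in Acat2 transcripts, 45.9% also occur in other genes, chiefly its copy Acat3 and its neighbour Tcp1, so its count is uncertain. Acat3 had 1 to 10 reads per library, and Tcp1 rose with radiation by 0.15 (SE 0.03, edgeR adjusted p 0.00017). Their part in the Acat2 count was not tested. Fdps fell by 0.38 (SE 0.16) with an adjusted p of 0.0496, and in 12 of 16 alternative analyses it no longer passed, with adjusted p from 0.0326 to 0.211 over all 16. Idi1 (chr13:8885501-8892451), the isopentenyl diphosphate isomerase, did not pass. Its values were 71.3, 66.9 and 78.8 CPM in control, 73.8, 72.7 and 72.5 in irradiated and 80.1, 82.9 and 68.7 in triol-treated libraries, all overlapping. The Idi1 log2 fold change was 0.01, with a 95% interval from -0.11 to 0.14, and 30.5% of its 50-base words occur in other annotated genes, mostly processed pseudogenes.

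Ggps1, which diverts farnesyl pyrophosphate to geranylgeranyl pyrophosphate for protein prenylation, had a log2 fold change of -0.04 (SE 0.06, adjusted p 0.54), with overlapping libraries.

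All 3 genes from squalene to lanosterol fell with radiation. Lss (chr10:76531588-76557138), lanosterol synthase, which closes the sterol rings, had 82.2, 78.1 and 79.3 CPM in control, 60.1, 54.5 and 56.1 in irradiated and 59.3, 65.0 and 58.2 in triol-treated libraries. Both irradiated groups lay below all controls and overlapped each other. The Lss log2 fold change was -0.49 (SE 0.05, adjusted p 3.0e-10). Fdft1 (chr14:63145150-63179578), squalene synthase, the first enzyme committed to sterols, had 54.7, 56.3 and 52.4 CPM in control, 39.9, 42.6 and 41.8 in irradiated and 47.0, 52.6 and 44.0 in triol-treated libraries. Only triol replicate 2 reached the control range, and no triol library fell within the irradiated range. Fdft1 fell by 0.40 on the log2 scale (SE 0.06, adjusted p 1.3e-06). On the opposite strand, Ctsb covers 18.3% of the exonic bases of Fdft1 and fell by 0.27 (SE 0.03); without a stated strand setting, reads of the pair cannot be told apart there. Sqle (chr15:59315077-59331192), squalene epoxidase, an oxygen-dependent control point, had 132, 128 and 127 CPM in control, 121, 116 and 110 in irradiated and 126, 136 and 129 in triol-treated libraries. The irradiated libraries were below all others, and the control and triol ranges overlapped. The radiation fall of Sqle was small, a log2 fold change of -0.16 (SE 0.04, adjusted p 0.0017).

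From lanosterol to cholesterol 7 of 8 genes fell. Nsdhl (chrX:72918557-72958514), a sterol dehydrogenase of C4 demethylation, had 41.6, 41.7 and 44.1 CPM in control, 29.5, 28.4 and 24.6 in irradiated and 29.7, 34.0 and 27.1 in triol-treated libraries. Control libraries stood apart above both other groups, and the log2 fold change was -0.63 (SE 0.08, adjusted p 3.7e-09). Cyp51 (chr5:4081145-4104746), the lanosterol 14α-demethylase, had 81.5, 78.3 and 87.8 CPM in control, 70.1, 60.8 and 66.3 in irradiated and 77.0, 74.8 and 71.1 in triol-treated libraries. The 3 groups formed separate ranges with the triol group in the middle. Cyp51 had a log2 fold change of -0.33 (SE 0.05, adjusted p 2.2e-06). Msmo1 (chr8:64718139-64733792), the C4 methyl sterol oxidase, had 145, 135 and 139 CPM in control, 120, 108 and 112 in irradiated and 131, 134 and 120 in triol-treated libraries. Irradiated values were below control values, and triol replicates 1 and 2 lay close under the lowest control, while replicate 3 was just above the irradiated range. For Msmo1 the log2 fold change was -0.30 (SE 0.04, adjusted p 3.9e-07).

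The last reductase of the path, Dhcr7 (chr7:143823145-143848410), which turns 7-dehydrocholesterol into cholesterol, had 58.4, 54.3 and 55.1 CPM in control, 45.5, 46.5 and 51.5 in irradiated and 52.9, 46.3 and 52.0 in triol-treated libraries. Control was above both other groups, which overlapped each other. Dhcr7 had a log2 fold change of -0.22 (SE 0.06, adjusted p 0.0024). Ebp, the sterol isomerase named after the drug emopamil, had a log2 fold change of -0.40 (SE 0.09, adjusted p 0.00062). Tm7sf2 fell by 0.59 (SE 0.18, adjusted p 0.0065), although its libraries overlapped, at 4.69 to 6.24 CPM in control and 3.08 to 4.78 in irradiated cells. Sc5d, the C5 desaturase, fell by 0.13 (SE 0.05, adjusted p 0.020), and 3 of 16 alternative analyses lost it. Hsd17b7, a 3-keto sterol reductase, had a log2 fold change of 0.02 (SE 0.11), with libraries at 13.6 to 15.1 CPM in control and 14.1 to 15.2 in irradiated cells.

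**Figure D3:**
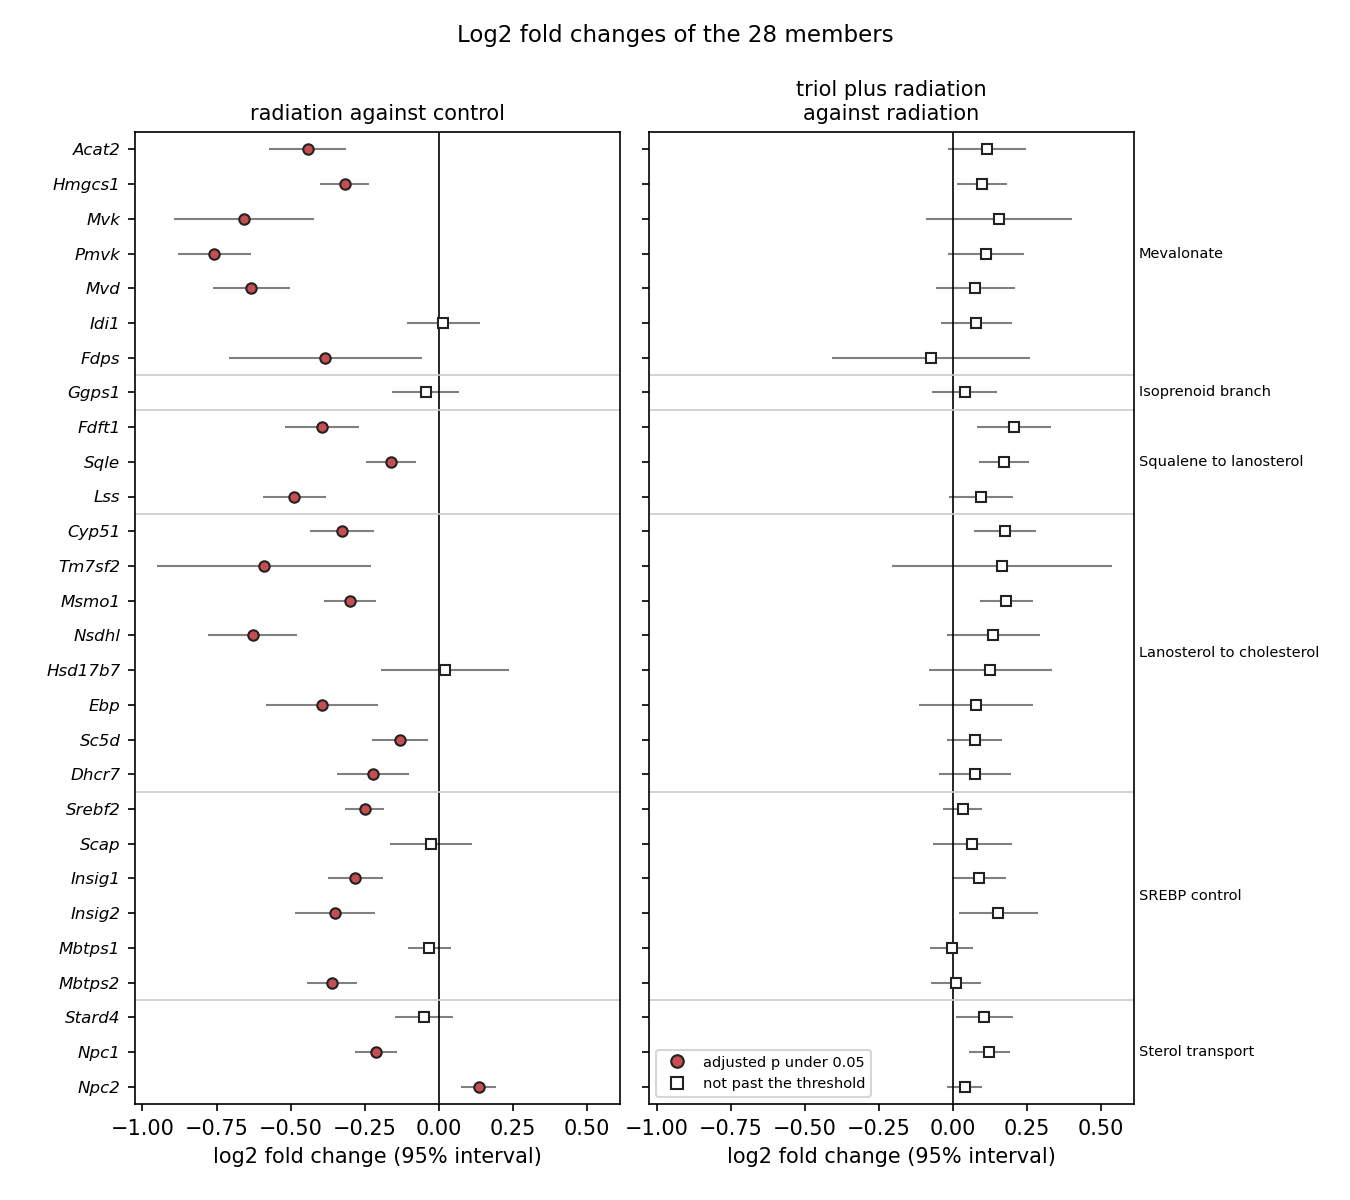
Points are log2 fold changes and lines their 95% intervals from the fit over all 9 libraries, on a common horizontal scale. Filled points passed an adjusted p of 0.05: 22 of 28 with radiation, and none for the triol against radiation alone.

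Among the 6 genes that control SREBP2, 4 fell with radiation and 2 did not pass. Srebf2 (chr15:82147181-82205379), which encodes SREBP2 itself, had 292, 296 and 284 CPM in control, 246, 244 and 243 in irradiated and 248, 252 and 249 in triol-treated libraries. Replicates were close together and the control group stood apart. Srebf2 fell by 16.0% (log2 fold change -0.25, SE 0.03, adjusted p 1.7e-08). Mbtps2 (chrX:157535371-157598715), the site-2 protease, had 111, 111 and 113 CPM in control, 86.2, 87.0 and 87.0 in irradiated and 87.9, 88.8 and 85.5 in triol-treated libraries. Both irradiated groups overlapped each other and lay below control, with a log2 fold change of -0.36 for radiation (SE 0.04, adjusted p 1.6e-09). Of the exonic bases of Mbtps2, 28.4% also lie in Yy2 on the same strand, a gene with 0 reads in every library, so its level is uncertain. Mbtps1 (chr8:119508156-119558735), the site-1 protease that cuts first, had 190, 182 and 183 CPM in control, 178, 188 and 176 in irradiated and 179, 176 and 185 in triol-treated libraries. All 3 groups overlapped, and the log2 fold change was -0.03 (95% interval -0.11 to 0.04).

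Of the proteins that hold or carry SREBP2, both Insig genes fell and Scap did not pass. Insig1 (chr5:28071363-28078662), the retention protein that is itself an SREBP2 target, had 98.5, 105 and 106 CPM in control, 88.5, 83.5 and 82.6 in irradiated and 87.1, 94.5 and 89.0 in triol-treated libraries. Insig2 (chr1:121304353-121332589), its relative, had 45.5, 46.0 and 50.6 CPM in control, 39.5, 34.7 and 37.2 in irradiated and 41.7, 44.4 and 38.0 in triol-treated libraries. Neither gene had a library of the irradiated groups within the control range. Insig1 fell by 0.28 (SE 0.05, adjusted p 2.1e-06) and Insig2 by 0.35 (SE 0.07, adjusted p 2.9e-05). Scap (chr9:110333288-110384950) had 41.5, 38.9 and 35.1 CPM in control, 36.8, 40.8 and 35.7 in irradiated and 40.2, 37.6 and 40.6 in triol-treated libraries. The Scap ranges overlapped throughout, and the log2 fold change was -0.03 (95% interval -0.16 to 0.11), a sign that turned with upper quartile scaling.

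The sterol carriers split. Npc2, the soluble lysosomal protein that picks up freed cholesterol (chr12:84754562-84773152), had 677, 682 and 652 CPM in control, 754, 740 and 714 in irradiated and 758, 767 and 745 in triol-treated libraries. Every irradiated and triol-treated library was above every control library. Npc2 rose by 0.13 on the log2 scale (SE 0.03, adjusted p 0.00022). Npc1, the lysosomal membrane protein that receives cholesterol from NPC2, had 227, 222 and 213 CPM in control, 189, 192 and 189 in irradiated and 205, 214 and 202 in triol-treated libraries. The irradiated libraries were tightly grouped below both other groups, and 1 triol library passed the lowest control. Npc1 fell by 0.21 (SE 0.04, adjusted p 3.3e-06). Stard4, a soluble sterol carrier between membranes, had 71.5, 75.0 and 71.4 CPM in control, 72.2, 68.7 and 69.7 in irradiated and 76.3, 78.1 and 72.3 in triol-treated libraries. Control and irradiated libraries of Stard4 overlapped, and its log2 fold change was -0.05 (95% interval -0.15 to 0.05).

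Summed over the 19 synthesis genes, control libraries had 1164, 1121 and 1164 CPM, irradiated libraries 952, 913 and 930, and triol-treated libraries 1013, 1057 and 972. The 3 ranges did not overlap. Over the 6 SREBP2 control genes the sums were 778, 777 and 772 in control, 675, 678 and 662 in irradiated and 684, 694 and 688 in triol-treated libraries. For the SREBP2 control genes the triol libraries lay just above the irradiated ones and far from control, while for synthesis they lay between the other groups. These sums are dominated by the most abundant genes and carry no test.

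**Figure D4:**
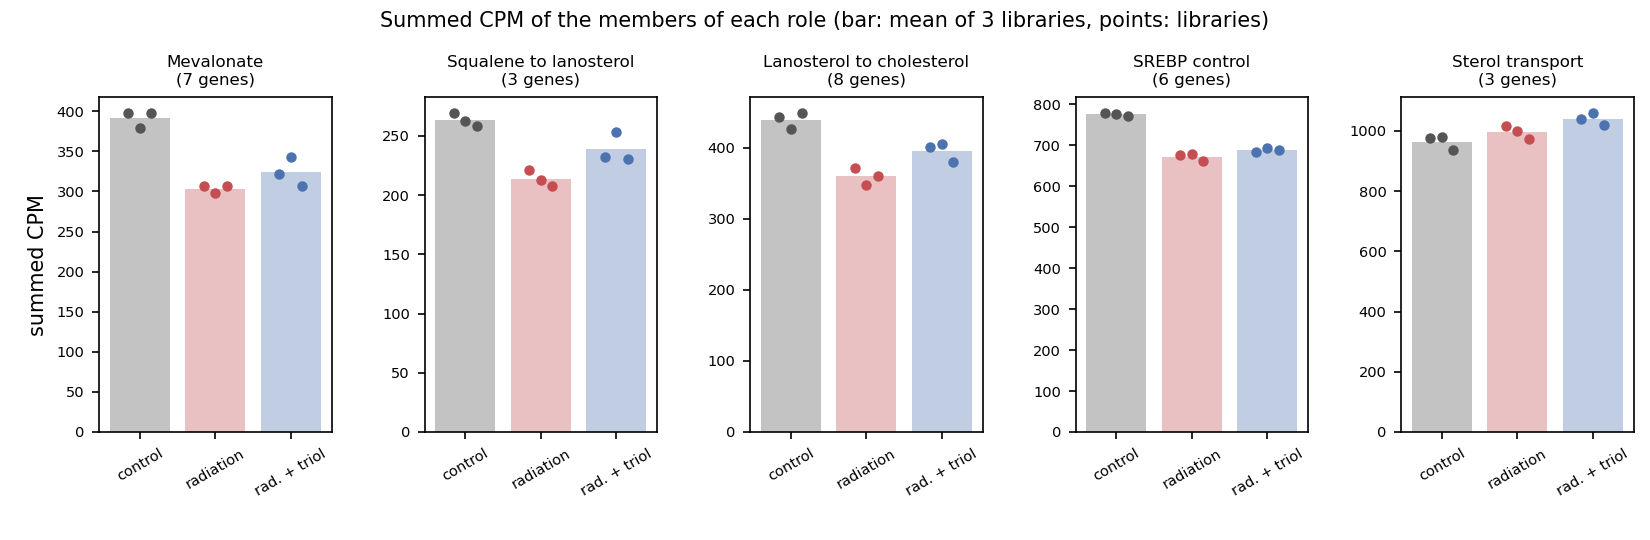
Bars are the mean summed CPM of the genes of each role over 3 libraries and points are the libraries, on axes that start at 0. Control libraries are highest in the panels for synthesis and SREBP2 control, while the sterol transport panel, which Npc2 dominates, has the triol libraries highest.

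Further genes of the pathway were read from the same fit, where 22.2% of all tested genes fell and 22.1% rose. Of 4 tested among 6 listed further genes of synthesis and uptake, 3 fell with radiation, and their median log2 fold change was -0.14. Among them Lbr, a nuclear envelope protein with sterol C14 reductase activity, had 109, 109 and 118 CPM in control, 92.8, 104 and 103 in irradiated and 105, 98.4 and 96.2 in triol-treated libraries. Irradiated Lbr values were below control values, with a log2 fold change of -0.16 (SE 0.05, adjusted p 0.0043). Tmem97, a sterol-binding regulator of NPC1, had a log2 fold change of 0.09 (SE 0.05, adjusted p 0.17). Of 10 tested genes that use isoprenoids 2 fell, a share near that of all tested genes: Dhdds, a subunit of the enzyme that makes dolichol, by 0.32 (SE 0.05, adjusted p 5.5e-06), and Fnta, a subunit of protein farnesyltransferase, by 0.18 (SE 0.06, adjusted p 0.021). Of 8 tested genes of SREBP and reductase control, 2 fell and 1 rose, again near or below the shares of all tested genes. Rnf145, a ubiquitin ligase of the endoplasmic reticulum, fell by 0.32 (SE 0.03, adjusted p 2.8e-10), and Erlin1 rose by 0.11 (SE 0.04, adjusted p 0.025). Of 12 tested sterol handling genes 6 fell, led by Lrp1, a lipoprotein receptor, by 0.54 (SE 0.04, adjusted p 7.8e-13), and Nceh1, a cholesterol ester hydrolase, by 0.30 (SE 0.03, adjusted p 1.3e-09).

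The triol was then compared with radiation alone, whose cells received vehicle, so a vehicle difference cannot be told apart from the triol. No member of the 28 passed the threshold by edgeR, where 0.106% of all tested genes passed, and none did by limma-voom. By DESeq2, Sqle alone passed, among the 8 members for which it gave an adjusted p. At an unadjusted edgeR p under 0.05, 8 members passed, all with higher levels in triol-treated cells, beside a background of 4.64% of all tested genes. A positive log2 fold change was found for 26 members, beside a background of 50.8%, with Fdps and Mbtps1 as the exceptions. For 10 members every triol library lay above every irradiated library, beside a background of 7.35%: Hmgcs1, Mvk, Fdft1, Sqle, Cyp51, Msmo1, Sc5d, Srebf2, Stard4 and Npc1. The median log2 difference of the members was 0.0965, against 0.0016 for all tested genes. This comparison shares its irradiated libraries with the radiation comparison, so the values of the pair are not independent.

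The 6 members with the smallest p were Sqle, Msmo1, Npc1, Cyp51, Fdft1 and Hmgcs1. Fdft1, with the largest difference, averaged 41.4 ± 1.37 CPM with radiation and 47.9 ± 4.36 with radiation and triol (SD, n = 3), a log2 difference of 0.21 (95% interval 0.08 to 0.33). By edgeR its unadjusted p was 0.0019 and its adjusted p 0.27. Sqle averaged 116 ± 5.73 and 130 ± 5.38 CPM (SD, n = 3), a log2 difference of 0.17 (95% interval 0.09 to 0.26), with an edgeR adjusted p of 0.099. Across the alternatives the adjusted p of Sqle ran from 0.0331 to 0.702. Msmo1 differed by 0.18 (95% interval 0.09 to 0.27, adjusted p 0.10) and Cyp51 by 0.18 (0.07 to 0.28, adjusted p 0.27). Npc1 differed by 0.12 (0.05 to 0.19, adjusted p 0.21) and Hmgcs1 by 0.10 (0.01 to 0.18, adjusted p 0.56). Insig2 at 0.15 (0.02 to 0.29) and Stard4 at 0.11 (0.01 to 0.20) were the other members under an unadjusted p of 0.05.

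The remaining members had smaller or less precise differences between the triol and radiation alone. In the mevalonate segment, log2 differences were 0.11 for Acat2, 0.15 for Mvk, 0.11 for Pmvk, 0.08 for Mvd, 0.08 for Idi1 and -0.07 for Fdps. Ggps1 differed by 0.04 and Lss by 0.10. All but Fdps were thus higher with the triol, within intervals that included 0. In the later steps they were 0.17 for Tm7sf2, 0.14 for Nsdhl, 0.13 for Hsd17b7, 0.08 for Ebp, 0.07 for Sc5d and 0.07 for Dhcr7. Of the control genes, Srebf2 differed by 0.03 (95% interval -0.03 to 0.10), Scap by 0.07, Insig1 by 0.09, Mbtps1 by -0.0045 and Mbtps2 by 0.01. For Npc2 the difference was 0.04. None of the 34 further pathway genes tested passed the threshold in this comparison.

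The size of these differences depended on which triol libraries entered. Triol replicate 2 was the highest of the 3 triol libraries for 21 of the 28 members, and replicate 3 was the lowest for 18. Without triol replicate 2 the median log2 difference was 0.0528, and 4 members were higher at an unadjusted edgeR p under 0.05, beside a background of 3.05%. Without triol replicate 3 the median was 0.128, and 13 members were higher at that p, beside 3.83%. Msmo1 then passed the threshold with an edgeR adjusted p of 0.0431. Leaving out irradiated replicate 2 left 5 members higher at that unadjusted p, beside 4.04%. Leaving out irradiated replicate 1 gave 10, beside 4.46%. The hepatocyte list also stood higher in triol than in irradiated libraries, at the levels given above. Of its 40 genes 8 were tested: 3 passed as higher with the triol and 0 as lower, where 0.106% of all tested genes passed. Its albumin gene Alb had 24, 11 and 2 reads in irradiated and 61, 65 and 82 in triol-treated libraries. Hp and Rbp4, with the most reads of the list, did not pass. Hp had 25.35, 29.25 and 26.92 RPM in irradiated and 21.88, 23.75 and 24.86 in triol-treated libraries. Rbp4 had 17.33, 18.45 and 14.02 RPM in irradiated and 16.48, 16.82 and 16.05 in triol-treated libraries.

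Triol-treated cells were last compared with control cells, a comparison that shares the triol libraries with the one above and the control libraries with the radiation comparison. Of the 28 members 19 were lower, beside a background of 21.7%, and Npc2 was higher, beside 21.5%. Idi1, Ggps1, Sqle, Hsd17b7, Sc5d, Scap, Mbtps1 and Stard4 did not pass. The median log2 difference was -0.19. Pmvk remained the lowest, at -0.65 (adjusted p 3.6e-12), followed by Mvd at -0.56, Mvk at -0.50, Nsdhl at -0.49, Fdps at -0.46 and Tm7sf2 at -0.42. Lss, Mbtps2, Acat2 and Ebp stood at -0.39, -0.35, -0.33 and -0.32. Hmgcs1 and Srebf2 were both at -0.22, Insig2 at -0.20, and Fdft1 and Insig1 both at -0.19. Cyp51 and Dhcr7 were both at -0.15, Msmo1 at -0.12 and Npc1 at -0.09. Genes below control were thus found in the mevalonate, squalene and lanosterol segments, and the single gene of the isoprenoid branch, Ggps1, did not pass. Apart from the minimum fold, 12 of the members that passed, Npc2 among them, did so in all 16 alternative analyses. Not every alternative kept Fdps, Tm7sf2, Insig2, Fdft1, Cyp51, Dhcr7, Msmo1 and Npc1. Tm7sf2 and Npc1 passed in 11 of 16 each. Npc2 stood at 0.17 (adjusted p 4.3e-06). Sqle stood at 0.01 (95% interval -0.07 to 0.09), Sc5d at -0.06, Stard4 at 0.06, Idi1 at 0.09, Hsd17b7 at 0.15, Ggps1 at -0.01, Scap at 0.04 and Mbtps1 at -0.04.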

How the data were processed

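RNA from 9 BV2 libraries, 3 per group, was measured. Per the labels' protocols, Trizol was used for extraction and the NEBNext Ultra RNA kit for library preparation. The authors deposited 1 table of whole-number read counts per gene, without normalisation. The submitters' processing notes list STAR 2.7.1a, Subread 1.6.3 with featureCounts, fastp 0.18.0 and FastQC, and the build GRCm38. The treatment of strand and multi-mapping reads, and the annotation release counted, are not stated in the labels or notes. Groups came from the sample titles.

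The counts of all genes were fitted with edgeR 4.0.16 (R 4.3.3): filterByExpr, TMM scaling, a robust quasi-likelihood fit of the 3 groups with 6 residual degrees of freedom, two-sided tests, and Benjamini-Hochberg adjustment over 11295 genes at 0.05. CPM uses TMM-scaled library sizes. Marker sums are RPM of raw totals. The typical replicate variation (biological coefficient of variation) was 3.18%. Alternatives were DESeq2 1.42.0, limma-voom (limma 3.58.1), other scalings, no filter, only the compared groups, a replicate block, a minimum fold of 1.2 and leaving out each library. Fits were tested on simulated data. The correlation check did not settle whether replicate numbers pair the libraries. Lengths, overlaps and coordinates are from GENCODE M21 (GRCm38), which matched all 21951 gene identifiers; promoter windows are RefSeq's.

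Members and lists were chosen with earlier results of these data known. Every member is named. Values per library are given for the 6 SREBP2 control and 3 transport genes, the 6 members with the smallest p in the radiation and in the triol comparison, and Hmgcs1, Idi1, Sqle, Fdft1, Cyp51 and Dhcr7. Other lists are given by counts and the 2 genes with the smallest p for radiation; in the list of further synthesis and uptake genes Lbr and Tmem97 are named instead, and in that of SREBP and reductase control Rnf145 and Erlin1, with Lbr, Tmem97 and Erlin1 chosen after values were seen. The other genes of these lists are not reported here by name.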

Additional observations from a re-analysis of the deposited data

How the results depend on the processing

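Counts of members past the threshold held within 1.5 times under most alternatives. With radiation 22 members passed, and 20 to 22 did when each library was left out; requiring a fold beyond 1.2 left 7. For the triol against radiation none passed; 1 passed with DESeq2, 2 without the filter on low counts (Msmo1 and Sqle), 1 with the replicate block, and 0 to 1 with a library left out. For the triol against control 20 passed, 16 to 20 with a library left out and 6 beyond a fold of 1.2. The minimum fold is a stricter question, and for the others the cause was not tested. The replicate block was also run. Same-numbered libraries correlated at 0.0842, 0.15 and 0.14 for radiation against control, where unlike numbers gave -0.229 to 0.117. Each irradiated library correlated best with the control of its own number, while control replicate 1 correlated best with irradiated replicate 2. For triol against radiation the same-numbered values were -0.0791, -0.0493 and -0.0289, and for triol against control -0.129, -0.0602 and -0.128. Whether the numbers pair control and irradiated libraries is therefore not settled. The block gave 21 calls for radiation and 20 for the triol against control. Signs turned only for members near 0. With radiation, Scap was 0.0023 under upper quartile scaling; with a library left out Scap ran from -0.0934 to 0.022, Hsd17b7 from -0.0186 to 0.0528 and Idi1 from -0.0438 to 0.0756. For the triol against radiation, Mbtps1 ran from -0.0301 to 0.0203 and Mbtps2 from -0.0023 to 0.0228. For the triol against control, Ggps1 was 0.0155 under upper quartile scaling and -0.045 to 0.0329 with a library left out, Sqle was -0.0051 without the filter and -0.0297 to 0.0269 with a library left out, and Scap ran from -0.0319 to 0.0834. With 3 libraries a group, Fdps and Tm7sf2, at a few CPM, had the widest intervals.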

Other observations

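Lbr and Tm7sf2 both encode sterol C14 reductases, and in control cells Lbr stood at 23.5 ± 1.15 CPM per kilobase of exon (SD, n = 3), while Tm7sf2 stood at 1.28 ± 0.186 (SD, n = 3). Both fell with radiation, Lbr by 0.16 and Tm7sf2 by 0.59 on the log2 scale.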
